A study of Glycine max with 9 samples.

Results

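Transcripts of the evening complex were followed in soybean root hair cells at 3 ages, through the locus published as soybean ELF3 (Glyma.04G050200) and the 2 loci published as LUX (Glyma.12G060200 and Glyma.11G136600). These 3 IDs were taken by their locus names from a table of 56044 gene IDs, and all 3 passed the filter on low values that left 31518 IDs for testing. Root hairs are tube-shaped outgrowths of single cells of the root epidermis. The plants, of the genotype spelled willam 82 in the labels, were raised in an ultrasound aeroponic system, which feeds suspended roots with a mist. The groups are titled 12h, 24h and 48h and were labelled 276, 288 and 312 hours after sowing, with 3 libraries each and no treatment or transgene named. The series concerns how transcription shifts as root hair cells develop.

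The evening complex is a night-time repressor of the plant circadian clock, described first in Arabidopsis. ELF3 is its scaffold protein, LUX is a MYB-type DNA-binding protein that brings the complex to its target promoters, and a small protein, ELF4, is the third partner. In Arabidopsis the transcripts of ELF3 and LUX are most abundant around dusk, opposite to those of LHY, a MYB-type repressor expressed around dawn that acts on evening genes. In soybean, ELF3 and LUX are known from flowering under short days.

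The RefSeq table of assembly Glycine_max_v4.0 lists ELF3A on chromosome 4, LUXB on chromosome 12 and LUXC on chromosome 11, the chromosomes that the 3 IDs carry in their names. It also lists ELF3B on chromosome 14 and a LUX pseudogene, LUXA, on chromosome 1. It pairs none of these symbols with an ID (0 IDs of the deposited table matched), so the published names of the 3 loci rest on their locus numbers. For the same reason no marker of root hairs or of other cell types could be looked up, and the labelled cell type was not checked. The 2 LUX loci may be similar enough in sequence to share reads, in which case their separate values are uncertain.

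The libraries were not equally comparable. Size factors by the median of ratios, which express how high the typical gene of a library lies, ran from 0.967 to 1.24 in 7 libraries, but were 0.599 in 12h replicate 2 and 0.798 in 24h replicate 3. The number of reads per library is unknown. Whether replicate libraries were made from separate plants is not stated, so p-values measure the spread between libraries, which may be technical. By the labels, 24h was sampled 12 hours after 12h, and 48h another 24 hours later. In the contrasts with 12h, age and hour of the day cannot be told apart, whereas 24h and 48h share the hour if the labelled ages are exact. Fewer cells of a type and less RNA per cell cannot be told apart either.

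ELF3 was the most abundant of the 3 transcripts, and it varied most at 12h. Its level was 32.6, 6.90 and 45.3 FPKM (fragments scaled to transcript length and to the mapped fragments of the library) in 12h replicates 1, 2 and 3. It was 6.95, 15.97 and 5.40 FPKM in the 24h libraries and 9.41, 6.57 and 5.89 FPKM in the 48h libraries. Replicates 1 and 3 at 12h thus lay above all other libraries, whereas 12h replicate 2, as deposited, lay within the range of the 48h group. The group means were 28.3 ± 19.6, 9.44 ± 5.71 and 7.29 ± 1.87 FPKM (SD, n = 3 each). Ranks among the IDs above 0 in the same library do not depend on scaling. By them ELF3 was at the 90.0th and 93.7th percentile in 12h replicates 1 and 3, and at the 72.7th in 12h replicate 2. It was between the 63.8th and 80.8th in the 24h libraries and between the 60.5th and 69.9th in the 48h libraries, so 12h replicate 2 ranked above the 48h group.

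The LUX locus Glyma.11G136600 had 8.16, 5.59 and 4.14 FPKM in the 12h libraries, 2.45, 8.04 and 1.98 FPKM in the 24h libraries, and 1.68, 2.01 and 2.12 FPKM in the 48h libraries. Its means were 5.96 ± 2.04, 4.16 ± 3.37 and 1.94 ± 0.230 FPKM (SD, n = 3 each). The other LUX locus, Glyma.12G060200, lay lower, with 2.99, 1.62 and 2.04 FPKM in the 12h libraries. Its level was 0.544, 2.97 and 0.531 FPKM in the 24h libraries and 0.490, 0.559 and 0.351 FPKM in the 48h libraries. Its means were 2.21 ± 0.702, 1.35 ± 1.40 and 0.467 ± 0.106 FPKM (SD, n = 3 each). This locus reached 1 FPKM, the level of the filter, only in the 12h libraries and 24h replicate 2. It thus entered the test through libraries in which it was high. Both LUX loci had the same layout over the libraries: all 12h libraries were above all 48h libraries, 24h replicates 1 and 3 lay near the 48h level, and 24h replicate 2 lay at the top of the 12h range. In 12h replicate 2, where ELF3 as deposited lay within the 48h range, both LUX loci were above every 48h library. After median-of-ratios scaling that library held the highest 12h value of both LUX loci, 9.33 and 2.70 scaled FPKM. Scaled ELF3 there was 11.5, the lowest 12h value but above the 48h libraries (4.98 to 7.66).

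**Figure D1:**
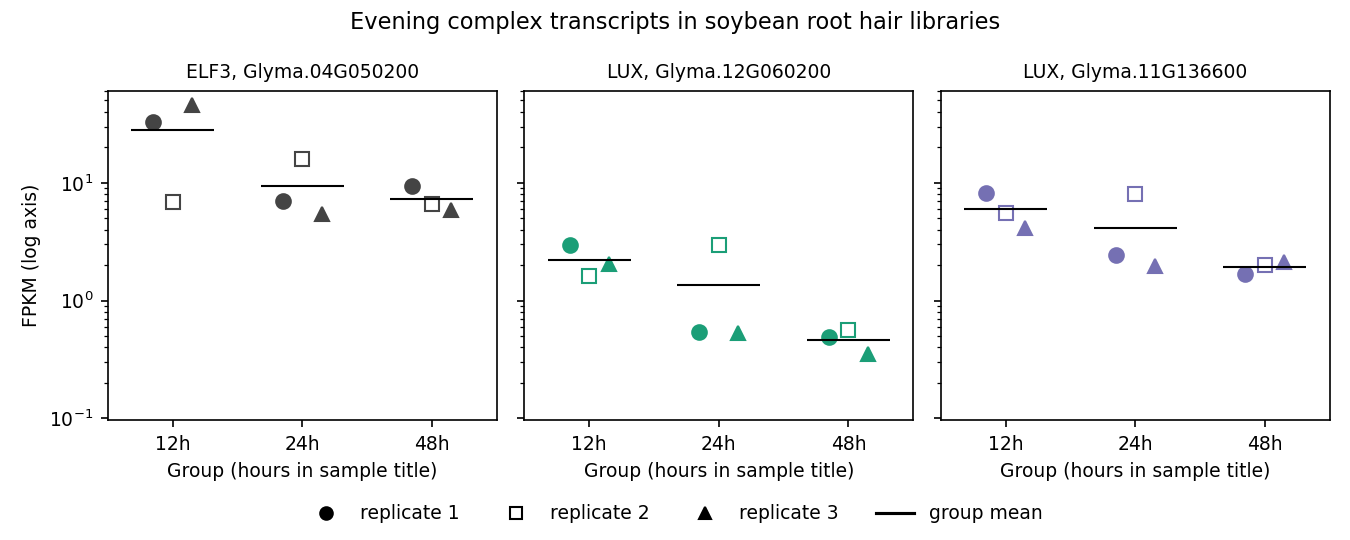
FPKM (log axis) of ELF3 and of the 2 LUX loci in each of the 9 libraries, by group, with marker shapes for replicate numbers and lines for group means. As deposited, 12h replicate 2 lies within the 48h range for ELF3 (6.90 FPKM) and above it for both LUX loci. After scaling, not drawn, ELF3 there was 11.5, above the 48h libraries (4.98 to 7.66). In all 3 panels 24h replicate 2 is the highest 24h library.

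Between 12h and 48h, the groups 36 hours apart, all 3 transcripts had lower means at 48h, by 3.88-fold for ELF3, 3.08-fold for Glyma.11G136600 and 4.75-fold for Glyma.12G060200. None of the 3 passed the test over all genes (limma on log2(FPKM + 1), Benjamini-Hochberg adjusted p under 0.05), which called 37 IDs or 0.117% of those tested, all higher at 48h. The log2 fold change of ELF3 was -1.50 (95% interval -2.80 to -0.20, limma adjusted p = 0.458). That of Glyma.11G136600 was -1.21 (95% interval -2.13 to -0.28, limma adjusted p = 0.446), and that of Glyma.12G060200 was -1.11 (95% interval -1.90 to -0.32, limma adjusted p = 0.436). Before adjustment, 3 of 3 had a limma p under 0.05 with a lower level at 48h (0.0268, 0.0147 and 0.00968), as did 1.56% of all IDs tested. This count dropped to 1 of 3 when 12h replicate 1 was left out. It dropped to 2 of 3, the LUX loci, on omitting the third 12h library or either the second or the third 48h library.

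The median log2 fold change of the 3 loci in this contrast was -1.21, against 0.34 for all 31518 IDs tested, and 1.06% of these IDs lay at or below -1.21. The 48h and 12h libraries did not overlap at 2 of 3 loci, the LUX pair, both lower at 48h, against 2.23% of all IDs. Of the pair, Glyma.12G060200 was under 1 FPKM in all 48h libraries and had passed the filter through libraries in which it was high. At ELF3 the groups overlapped through 12h replicate 2. Median-of-ratios scaling moved the median of all IDs to -0.02 and the log2 fold changes of ELF3, Glyma.11G136600 and Glyma.12G060200 to -1.92, -1.56 and -1.32 (limma adjusted p = 0.367, 0.364 and 0.340). After it, the groups did not overlap at 3 of 3 loci, against 7.77% of all IDs in this direction. Without 12h replicate 2 the log2 fold change of ELF3 was -2.27 and did not pass (limma adjusted p = 0.136; 1 ID called). Without both 12h replicate 2 and 24h replicate 2, which was tried after the values had been seen, ELF3 passed at the same value (limma adjusted p = 0.0350; 44 IDs or 0.140% called) and the LUX loci did not (limma adjusted p = 0.286 and 0.115).

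**Figure D2:**
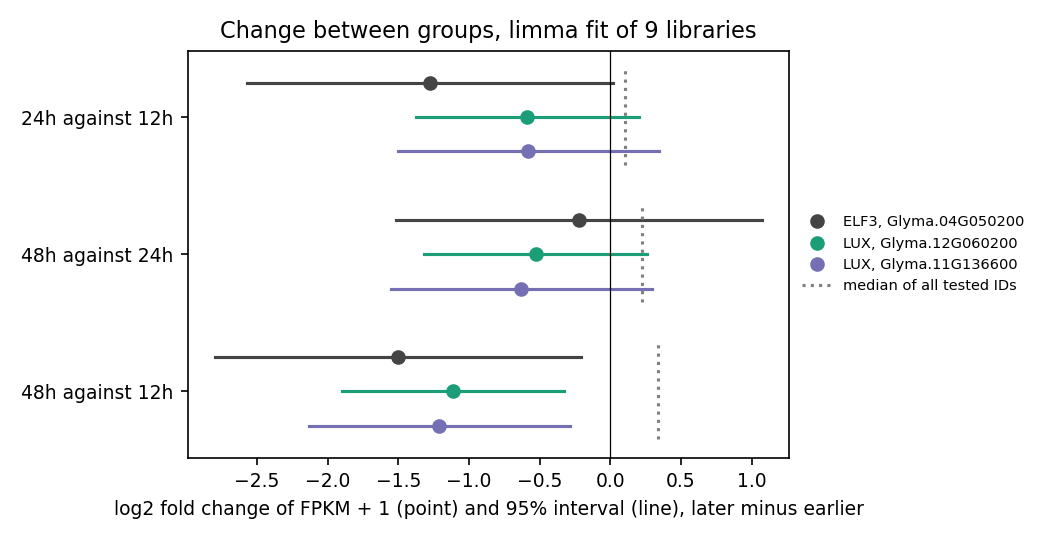
log2 fold change of FPKM + 1 for each of the 3 loci and contrasts (points) with 95% intervals (lines) from the limma fit of 9 libraries, and the median of all tested IDs (dotted). All points lie left of the median of all IDs, and the intervals exclude 0 for 48h against 12h, where ELF3 reaches from -2.80 to -0.20.

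Between 12h and 24h, ELF3 had a 2.99-fold lower mean at 24h, and the LUX loci Glyma.11G136600 and Glyma.12G060200 had 1.43-fold and 1.64-fold lower means. With all libraries 0 of 3 passed (limma adjusted p = 0.499, 0.581 and 0.539), against 0.0381% of all IDs, and 0 of 3 had an unadjusted limma p under 0.05, against 3.6% of all IDs with such a p and a lower level at 24h. The log2 fold change of ELF3 was -1.28 (95% interval -2.57 to 0.02), and those of the LUX loci were -0.58 (95% interval -1.51 to 0.34) and -0.59 (95% interval -1.37 to 0.20). The groups overlapped at 3 of 3 loci as deposited and after scaling, at ELF3 through 12h replicate 2 and at LUX through 24h replicate 2. Of all IDs, 1.73% as deposited and 8.79% after scaling were lower at 24h without overlap. The median of the 3 was -0.59, against 0.10 for all IDs, and 12.4% of all IDs lay at or below it (11.2% after scaling). Without 24h replicate 2 the LUX values were -1.08 and -1.04 and 3 of 3 loci had an unadjusted limma p under 0.05, but 0 of 3 passed after adjustment (limma adjusted p = 0.757 to 0.896).

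The size for ELF3 in this contrast rested on single 12h libraries. It was -1.01 when 12h replicate 1 was omitted and -0.77 on omitting the third 12h library (limma adjusted p = 0.524 and 0.856). Without 12h replicate 2, the library in which the typical gene was lowest, it was -2.05 and ELF3 passed (limma adjusted p = 0.0288), as 1 of 3803 IDs called (12.1% of those tested), 2421 of them lower at 24h. It also passed when scaling was added (log2 fold change -1.96, limma adjusted p = 0.0293; 15.9% of all IDs called). With 24h replicate 2 left out as well it was -2.47 (limma adjusted p = 0.0476), where 32 IDs or 0.102% were called. The LUX loci did not pass in these 3 fits, where their limma adjusted p ran from 0.0709 to 0.375.

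Between 24h and 48h, the means were 1.29-fold lower at 48h for ELF3, 2.15-fold lower for Glyma.11G136600 and 2.89-fold lower for Glyma.12G060200. With limma 0 of 3 passed, as did 0% of all IDs. The share of all IDs was 11.8% without 12h replicate 2 and 17.2% in a fit of only these 6 libraries, again with 0 of 3 loci. In the fit of 9 libraries 0 of 3 had an unadjusted limma p under 0.05, against 2.26% of all IDs with such a p and a lower level at 48h. The log2 fold changes were -0.22 for ELF3 (95% interval -1.52 to 1.07, limma adjusted p = 0.862), -0.63 for Glyma.11G136600 (95% interval -1.55 to 0.30, limma adjusted p = 0.430) and -0.53 for Glyma.12G060200 (95% interval -1.32 to 0.26, limma adjusted p = 0.437). The median was -0.53, against 0.23 for all IDs, and 10.2% of all IDs lay at or below it (16.3% after scaling). The log2 fold changes of the 3 loci rested on 24h replicate 2: without it they were 0.19, -0.13 and -0.07. The groups overlapped at 3 of 3 loci as deposited, where 11.7% of all IDs were lower at 48h without overlap. After scaling (median of all IDs -0.02) the LUX loci did not overlap, lower at 48h, as for 22.7% of all IDs. With array weights, which give less weight to libraries that stand apart, both LUX loci passed (limma adjusted p = 0.0280 and 0.0376) among 9648 IDs called, 30.6% of those tested.

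Over the 3 ages together, limma's F test called 0 of 3 loci and 0.0286% of all IDs, with an adjusted p of 0.365 for each locus. Unadjusted, 2 of 3 had a limma p under 0.05, the LUX loci, against 13.6% of all IDs. ELF3 passed without 12h replicate 2 (limma adjusted p = 0.0388), also with scaling added (limma adjusted p = 0.0460), when 9.91% and 6.67% of all IDs were called. All 3 passed with array weights (limma adjusted p = 0.0196 to 0.0250), with 21.3% of all IDs. The order of the group means was 12h, 24h, 48h for each locus, and in the fit of 9 unweighted libraries no neighbours in it passed the test.

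**Figure D3:**
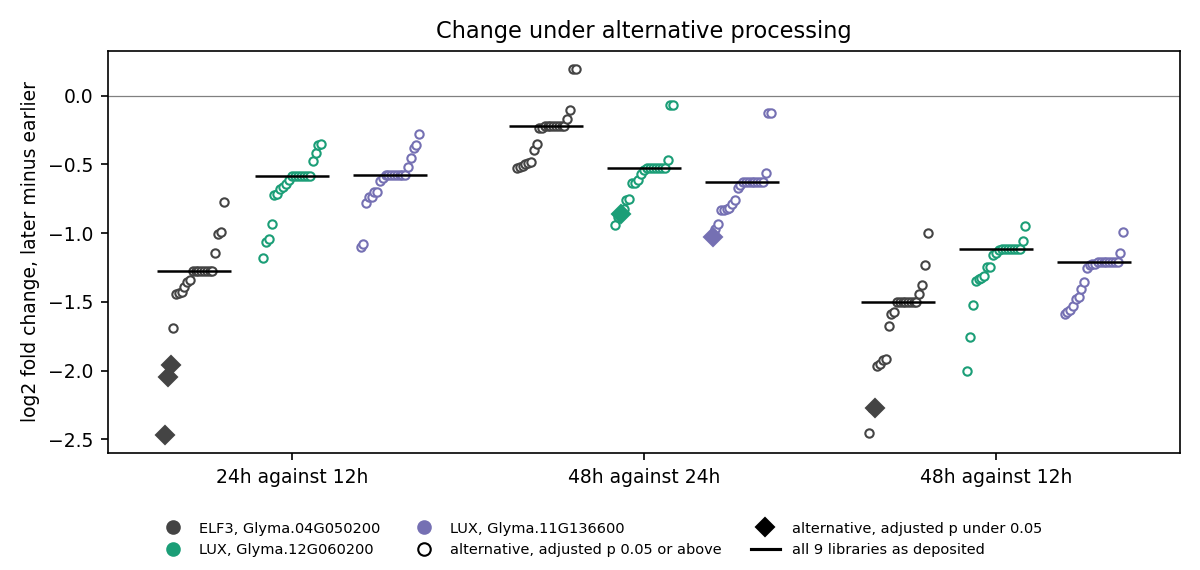
log2 fold change of each locus in each contrast under the alternative settings (open circles, adjusted p 0.05 or above; diamonds, under 0.05) and with all 9 libraries as deposited (lines). Diamonds appear for ELF3 in both contrasts with 12h, at -2.47 to -1.96 for 24h and -2.27 for 48h, and for the LUX loci in 48h against 24h, and only ELF3 in 48h against 24h crosses 0.

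Ratios within a library do not depend on scaling between libraries. FPKM is per transcript length, so levels of different genes can be set side by side, and the order ELF3, Glyma.11G136600, Glyma.12G060200 held in 9 of 9 libraries. The level of the LUX locus Glyma.11G136600 was 2.03 to 6.02 times that of Glyma.12G060200. The mean log2 ratio of the 12h, 24h and 48h groups was 1.42 ± 0.383, 1.83 ± 0.369 and 2.07 ± 0.450 (SD, n = 3 each). The groups overlapped in each pair, and two-sided exact permutation tests gave p = 0.3 between the 12h and 24h groups, 0.6 between 24h and 48h, and 0.2 between 12h and 48h (adjusted over 6 tests 0.6, 0.84 and 0.6). The smallest p that 3 against 3 libraries allow is 0.1.

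The summed LUX level was lower than that of ELF3 in all libraries but 12h replicate 2. In that library the ratio of LUX to ELF3 was 1.05, against 0.342 and 0.136 in 12h replicates 1 and 3, so the 12h group spanned the lowest and the highest ratio of all 9. At 24h the ratio was 0.430, 0.690 and 0.465, and at 48h it was 0.230, 0.391 and 0.419. The lowest 24h value lay just above the highest 48h value, with an exact permutation p of 0.1, the smallest possible, and 0.6 after adjustment over 6 tests. The other 2 contrasts had an exact permutation p of 0.7 for 24h and 1 for 48h, each against 12h.

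The 2 LUX loci varied together. Over the 9 libraries, on log2(FPKM + 1), Pearson's r between them was 0.965 (exact permutation p = 0.000945, adjusted over 3 pairs of loci 0.00284) and Spearman's rho 0.85 (exact permutation p = 0.00607, adjusted 0.0182). Without 12h replicate 1 and 24h replicate 2, the libraries farthest from the median of Glyma.12G060200, r was 0.904. The exact tests of r, here and below, exchange all 9 libraries without regard to group, so differences between groups also lower their p. For the deviations of each library from its group mean r was 0.925. Much of the r of the deviations came from 24h replicate 2, which was high at both loci. Without it, a setting added after the values had been seen, r was 0.590 for deviations but still 0.952 for levels. Among 31517 other IDs tested, each LUX locus had its highest r with the other. Shared reads would also raise this r, and their part was not tested.

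Between ELF3 and LUX the correlations were lower. The r of ELF3 was 0.781 with Glyma.12G060200 (exact permutation p = 0.0134, adjusted 0.0201; rho 0.7, exact p = 0.0433, adjusted 0.0649) and 0.630 with Glyma.11G136600 (exact permutation p = 0.0665; rho 0.583, exact p = 0.108). Without 12h replicates 1 and 3, the libraries farthest from the ELF3 median, these were 0.768 and 0.667, and for deviations from the group means 0.635 and 0.360. Without 24h replicate 2 the deviations had r of 0.627 and -0.113. By r with ELF3, the LUX loci ranked 490 and 1723 of 31517 IDs. The highest r with ELF3 belonged to Glyma.07G235900 (0.982) and Glyma.04G040400 (0.973). The first lay near the filter, at 0.489 to 1.57 FPKM. It reached 1 FPKM only in 12h replicates 1 and 3 and 24h replicate 2, the libraries in which ELF3 was highest. The second had 102, 35.3 and 152 FPKM at 12h, 24.6, 50.8 and 23.2 FPKM at 24h and 50.5, 29.0 and 22.8 FPKM at 48h.

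After the LUX partner, the highest r was that of Glyma.19G093400 with Glyma.12G060200 (0.955) and of Glyma.02G064100 with Glyma.11G136600 (0.95). Glyma.19G093400, like Glyma.12G060200, reached 1 FPKM only in the 12h libraries and 24h replicate 2. Glyma.02G064100 was, like LUX, high at 12h and in 24h replicate 2 and low in the other libraries, with 284, 251 and 107 FPKM at 12h, 17.2, 129 and 12.8 FPKM at 24h and 9.49, 13.0 and 13.9 FPKM at 48h. The sources used here give no name for these 4 IDs. With 9 libraries and 31517 IDs, high values of r arise among many IDs, and the ranks are a description of these libraries.

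Loci of the rest of the clock were set beside those of the evening complex. The 4 loci published as LHY were higher at 48h than at 12h in the fit of 9 libraries as deposited. There 4 of 4 passed (limma adjusted p = 0.00899 to 0.0221), against 0.117% of all IDs. With median-of-ratios scaling, without 12h replicate 2 or without 48h replicate 1, only 1 ID of all was called in this contrast. The 4 LHY loci thus cannot all have passed in those fits, and their calls there were not counted. In this contrast 0 of 4 further evening loci passed (limma adjusted p = 0.546 to 0.975), of which 2 are published as GIGANTEA, a clock-regulated protein of the flowering pathway, and 2 as TOC1, a repressor of LHY. In the other 2 contrasts 0 of these 8 loci passed, as did 0% of all IDs for 48h against 24h. As deposited, 4 of 4 LHY loci were higher in the later group without overlap in both. The share of all IDs higher without overlap was not counted. Their means were 5.01- to 197-fold higher at 24h than at 12h (limma adjusted p = 0.326 to 0.499), the largest at a locus of at most 0.0692 FPKM at 12h. From 24h to 48h the means rose 3.74- to 4.74-fold (limma adjusted p = 0.248). In 24h replicate 2, the 24h library with the highest level of all 3 evening complex loci, 4 of 4 LHY loci had their lowest 24h level. Glyma.16G017400, the most abundant LHY locus, had 9.33 FPKM there, against 69.8 and 24.1 FPKM in 24h replicates 1 and 3, and 2.47 to 4.05 FPKM at 12h.

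Both LUX loci ran opposite to LHY. Pearson's r over 9 libraries with the 4 LHY loci was -0.881 to -0.857 for Glyma.12G060200 and -0.862 to -0.851 for Glyma.11G136600 (exact permutation tests, adjusted p = 0.0378 for each over the 36 relations of the 3 loci with 12 other loci). Spearman's rho was -0.80 to -0.78 and -0.85 to -0.80, which did not pass (exact permutation, adjusted p = 0.0689). These p-values take the 9 libraries as exchangeable and ignore the groups. Without the 2 libraries farthest from the LUX median r was -0.908 to -0.837, and after median-of-ratios scaling it was -0.961 to -0.915. For deviations from the group means it was -0.761 to -0.667, but without 24h replicate 2 these lay between -0.231 and 0.047, whereas r of the levels was -0.911 to -0.866. Within groups the opposition therefore rested on that library, and otherwise on the differences between groups. Counted from the lowest r, the LHY loci were 31st to 60th of 31517 IDs for Glyma.12G060200 and 44th to 63rd for Glyma.11G136600. The 12h and 48h libraries form separate clusters at LHY.

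ELF3 did not pass against LHY as deposited, with r from -0.642 to -0.584 (exact permutation, adjusted p = 0.161 to 0.193; rho -0.45 to -0.40). After scaling, r was -0.848 to -0.799. As deposited it was -0.243 to -0.158 for deviations from the group means. Without 24h replicate 2, r was 0.244 to 0.294 for deviations and -0.629 to -0.567 for levels. Without 12h replicates 1 and 3 it was -0.302 to -0.244. Its r with the GIGANTEA locus Glyma.20G170000 was 0.899 and with the TOC1 locus Glyma.06G196200 0.833 (exact permutation, adjusted p = 0.0378 each; rho 0.783 and 0.717, adjusted p = 0.0689 and 0.121). With the other GIGANTEA locus, Glyma.10G221500, r was 0.676, and with the other TOC1 locus, Glyma.04G166300, 0.532, and neither passed (exact permutation, adjusted p = 0.116 and 0.207). The first 2 were 0.729 and 0.447 without 12h replicates 1 and 3. For deviations from the group means, as deposited, r with the 2 GIGANTEA loci was 0.908 and 0.910, and with the 2 TOC1 loci 0.757 and 0.957. Like ELF3, all 4 were at their lowest 12h level in 12h replicate 2, the library in which the typical gene was lowest (size factor 0.599). After scaling, Glyma.10G221500 had 2.80 there (next lowest at 12h 16.5) and Glyma.20G170000 1.32 (9.86). The gap was smaller for the TOC1 loci Glyma.04G166300, 5.40 (6.93), and Glyma.06G196200, 11.7 (12.9). The share of all IDs lowest in that library was not counted. Whether the r values of ELF3 and LUX differ from each other was not tested.

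**Figure D4:**
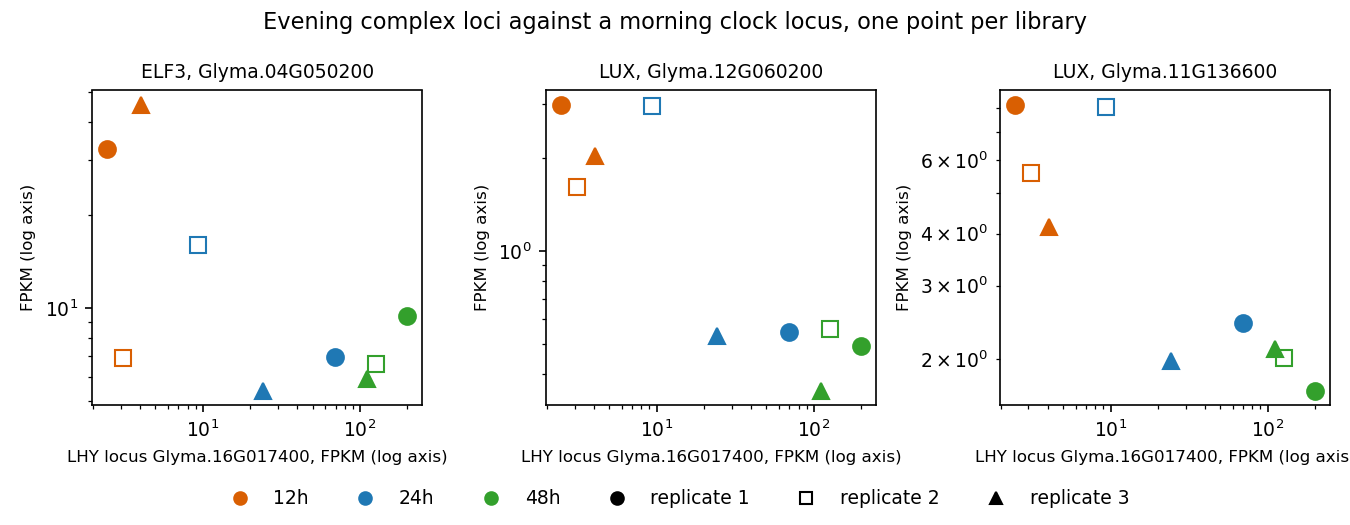
FPKM of each evening complex locus against that of the LHY locus Glyma.16G017400 (both log axes), 1 point per library, colours for groups and shapes for replicate numbers. For LUX, the 3 libraries at 12h and 24h replicate 2 form the group with high LUX and LHY under 10 FPKM. For ELF3 as deposited, 12h replicate 2 drops out of it. After scaling, not drawn, ELF3 there was 11.5, above the 48h libraries (4.98 to 7.66).

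**Figure D5:**
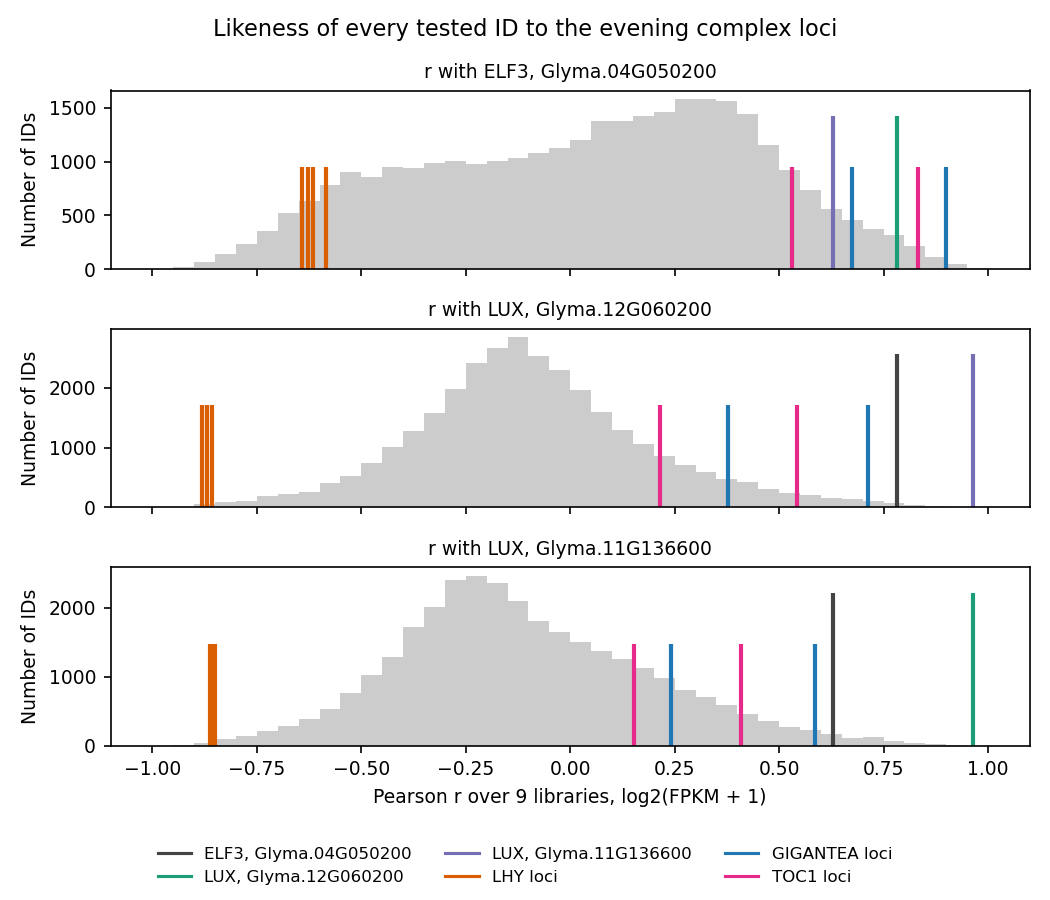
Number of tested IDs by Pearson r over 9 libraries with each evening complex locus (bars, 0.05 wide), with lines for the other evening complex loci and the LHY, GIGANTEA and TOC1 loci. The LHY loci lie in the left tail for both LUX loci (-0.881 to -0.851) and less far out for ELF3 as deposited (-0.642 to -0.584; -0.848 to -0.799 after scaling, not drawn), and the LUX partner is at the right edge (0.965).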

How the data were processed

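The deposited table holds FPKM values, scaled by the authors; the submitters' processing notes name TopHat2 2.1.0 and Cufflinks 2.2.1, and the sources used here give no genome build. Its name refers to tissue culture, whereas the labels say root hair cells; the labels were followed. Whole reads were not recovered (1.44% to 5.74% of IDs under 0.2 FPKM shared the most common ratio within 1%, over 36 pairs of libraries), so the depth stays unknown and counting intervals are left out.

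IDs reaching 1 FPKM in 3 or more libraries were tested with limma 3.58.1 (R 4.3.3), with an intensity trend, on log2(FPKM + 1), with 1 fit of all 9 libraries and a coefficient per group, Benjamini-Hochberg over 31518 IDs. Fold changes on this scale understate changes of low genes. Exact tests used Python 3.11.15; the limma step was tested on simulated data. The loci and lists were chosen with earlier results of these data known. The 3 loci and the clock and photoperiod loci are named, plus the 2 IDs of highest r per locus. Alternatives covered pseudocount, filter, scaling, moderation, weights, replicate block, fits of 6 libraries and each library left out; leaving out 12h and 24h replicates 2 together was added after seeing the data.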

Additional observations from a re-analysis of the deposited data

How the results depend on the processing

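In the 22 alternative fits the log2 fold changes kept their sign at all 3 loci, except ELF3 for 48h against 24h, which was 0.19 without 24h replicate 2, with or without 12h replicate 2 (leave-one-out range -0.51 to 0.19). Glyma.12G060200 was under the filter at 5 FPKM. With no filter its log2 fold change for 48h against 12h was -1.11 (limma adjusted p = 0.434). Of 3 loci, 0 passed in each contrast and in the F test with all libraries, unweighted and as deposited. Leaving out 1 library gave 0 to 1 for 24h against 12h and for the F test, and 0 in the other contrasts. Without 12h replicate 2 and with scaling, 1 passed for 24h against 12h and 1 in the F test, and 0 in the other contrasts. Array weights gave 2 for 48h against 24h and 3 in the F test (30.6% and 21.3% of all IDs). Without 12h and 24h replicates 2, 1 locus passed in each contrast with the 12h group. The cause was not tested.

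Replicate numbers showed no consistent pairing of the libraries. Deviations of same-numbered libraries correlated at -0.0778 to 0.351, 1 of 9 above 0.1, against -0.457 to 0.229 for the other pairs. A library correlated best with its own number in 3 of 18 comparisons. The 0.351, between 12h and 24h replicate 1, was the highest of all, and 3 libraries per group are too few to settle whether they were paired. With a replicate block 0 loci passed (21, 4, 102 and 81 IDs for 24h against 12h, 48h against 24h, 48h against 12h and the F test, against 12, 0, 37 and 9 without it).

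The difference in log2 ratio of the LUX loci turned to -0.10 (48h against 24h) and -0.10 (48h against 12h) with a pseudocount of 1, and to -0.022 without 48h replicate 3 (48h against 24h; leave-one-out range -0.022 to 0.40). That of LUX to ELF3 was -0.21 without 12h replicate 3 for 24h against 12h (range -0.21 to 1.26). For 48h against 12h it was 0.10 with a pseudocount of 1, 0.64 without 12h replicate 2 and 0.15 without 48h replicate 1 (range -0.83 to 0.64).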

Other observations

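The clock and photoperiod list held 9 further IDs, named by locus number only as E1 family, FT, PRR3 family and phytochrome A loci. Of these 4, the PRR3 family and phytochrome A loci, passed the filter and 0 passed limma's test in any contrast (adjusted p = 0.248 to 0.974). The other 5, of the E1 family (Glyma.06G207800, Glyma.04G156400 and Glyma.04G143300) and FT (Glyma.16G150700 and Glyma.16G044100), were listed at 0 in 38 of 45 values and reached at most 0.120 FPKM. Among the 4, Glyma.12G073900 was, like ELF3, high in 12h replicates 1 and 3 (13.9 and 24.7 FPKM) and low in 12h replicate 2 (1.76 FPKM). Its r with ELF3 over 9 libraries was 0.697 (exact permutation, adjusted p = 0.115; rho 0.567), and -0.06 without 12h replicates 1 and 3, so that relation rests on these libraries. The other PRR3 family locus, Glyma.U034500, had 8.16, 1.11 and 12.9 FPKM in 12h replicates 1, 2 and 3. Its r with ELF3 was 0.685, and 0.017 without 12h replicates 1 and 3. The phytochrome A loci were also lowest at 12h in replicate 2 (0.428 and 3.31 FPKM), where the typical gene was lowest.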
